A study of Mus with 9 samples.

Results

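Artesunate-treated infarction was compared with sham surgery in mouse tissue labelled atria, by messenger RNA sequencing of 3 libraries from each group. The members were the 3 libraries labelled MI + ART (here MI_ART 1 to 3) and the 3 labelled Sham + Vehicle (Sham 1 to 3), chosen by label alone, which makes 6 of the 9 libraries in the series. Every gene of the deposited table was eligible, and 19326 of 55421 genes had enough counts to be tested. The MI_ART mice were male wild-type C57BL/6J mice, 8 to 10 weeks old and 20 to 23 g, with permanent ligation of the left anterior descending coronary artery and intraperitoneal artesunate dissolved in dimethyl sulfoxide. The Sham mice were of the same strain, sex, age and weight and underwent the surgery without ligation, with vehicle. The remaining 3 libraries came from ligated mice given vehicle (MI 2 to 4). They entered the fit for its estimate of spread, and their values are given beside the others. The labels conflict on the dose. The sample protocol gives 25 mg/kg daily for 7 days from surgery, and the series design gives 10 mg/kg every other day from 2 days before surgery to day 7. The day of tissue collection is not stated, and the labels do not tie the libraries to separate mice, so p-values measure the spread between these libraries, which may be technical in part.

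Ligation of this artery kills part of the left ventricular wall, and the heart answers with an influx of neutrophils and monocytes, proliferation of fibroblasts and immune cells, and deposition of collagen scar. The atria lie outside the infarct but are loaded by the failing ventricle, and their inflammation, fibrosis and altered ion channels are the known ground for atrial fibrillation. Artesunate is a semisynthetic derivative of the antimalarial artemisinin. Its endoperoxide bridge is opened by ferrous iron and haem, which is why genes of iron, haem and glutathione handling are described below beside those of inflammation and scar. Comparing treated infarction with sham asks what still differed from uninjured tissue labelled atria under treatment.

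The MI_ART libraries held 69363844 to 69974836 counts and the Sham libraries 68046341 to 83685313. Mitochondrially encoded genes took 24.0% ± 1.33 of the counts in MI_ART and 40.1% ± 2.80 in Sham (SD, n = 3 each; two-sided exact permutation p = 0.1, the smallest that 3 against 3 allows). Levels below are in CPM, the counts of a gene scaled to a common library size after edgeR's TMM correction, which sets the bulk of genes level between libraries. With scaling to total counts, the median of all genes moved up by 0.74 on the log2 scale. Calls (adjusted p under 0.05, edgeR's quasi-likelihood test, Benjamini-Hochberg over all tested genes) then numbered 8032 higher and 124 lower, against 2488 and 1433 with TMM. Directions below are therefore relative to the bulk of genes, and fewer cells of a type cannot be told apart from less RNA per cell. The medians of 28 of 61 gene lists lay below 0 with TMM, and 17 of these turned above 0 with total-count scaling. Single libraries stood apart in marker transcripts, with brain transcripts in MI_ART 1, airway transcripts in Sham 1 and almost no atrial muscle transcripts in MI_ART 3.

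Of the tested genes, 2488 (12.9%) were higher and 1433 (7.41%) lower in MI_ART than in Sham, which together is 20.3%. Increases were the larger. At least 4-fold changes were found for 1089 of the higher genes and 53 of the lower, and at least 16-fold changes for 406 and 7. The median log2 fold change was 1.77 over the genes called higher and -0.94 over those called lower, against 0.01 over all tested genes. In 48.2% of tested genes the 3 MI_ART libraries did not overlap the 3 Sham libraries. Leaving out each library in turn gave 1596 to 3434 higher and 455 to 2896 lower calls. Lower calls fell to 455 without MI_ART 1, 642 without Sham 3, 659 without MI_ART 3, 774 without MI_ART 2, 784 without Sham 1 and 799 without Sham 2. They rose to 2896 without MI 4, a library that stood apart within its own group, and higher calls fell to 1596 without MI_ART 1. In the same fit, MI against the same Sham libraries gave calls for 33.1% of genes, and MI_ART against MI for 2 genes, Slc39a9 and Tnnt3 (0.0103%).

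**Figure D1:**
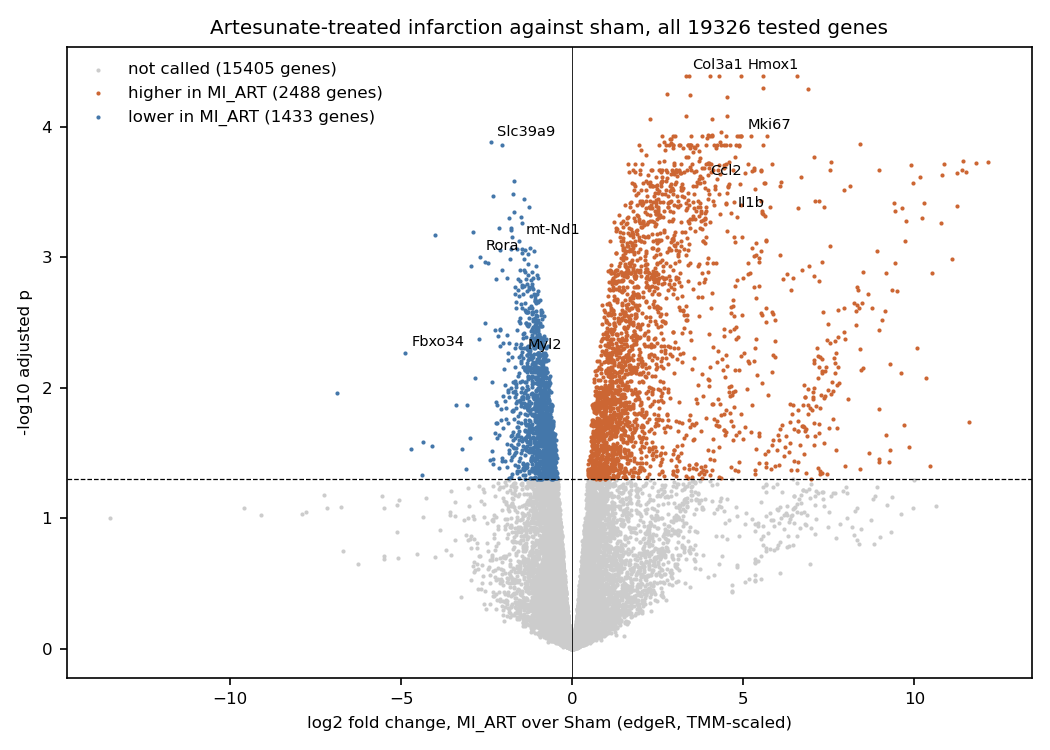
Log2 fold change of MI_ART over Sham (x axis) against -log10 of the adjusted p (y axis) for the 19326 tested genes. Orange points are the 2488 genes called higher and blue points the 1433 called lower, above the dashed line at an adjusted p of 0.05, and the far right holds genes without counts in Sham.

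The matrix genes were among the groups that rose. Of 19 collagen genes tested, 18 rose and none fell, with a median log2 fold change of 2.04 (2.86 in MI against the same Sham libraries). Col3a1, a fibrillar collagen of young scar (chromosome 1 in GRCm38), was at 442, 353 and 310 CPM in Sham and at 3615, 3373 and 4092 CPM in MI_ART. The groups lay far apart, at 3.33 ± 0.20 on the log2 scale (SE; adjusted p = 4.07e-05). Col1a1, the main chain of stiff fibrillar collagen, was at 45.5, 38.0 and 31.6 CPM in Sham and at 747, 477 and 739 CPM in MI_ART (log2 4.09 ± 0.32, adjusted p = 0.000117). MI_ART 2 was the lowest of the treated libraries and far above each Sham library. Col12a1, a collagen that coats fibrils, rose from 1.73, 1.92 and 2.57 CPM to 34.7, 30.0 and 37.4 CPM (log2 4.04 ± 0.24, adjusted p = 4.07e-05).

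Genes that process collagen rose in 15 of 18 cases and fell in none (median 1.52). Lox, the enzyme that crosslinks collagen and elastin, was at 6.20 to 8.63 CPM in Sham and at 161, 110 and 139 CPM in MI_ART, without overlap. P4ha3, a prolyl hydroxylase subunit, was at 0.0987 to 0.249 CPM in Sham and at 4.65 to 9.37 CPM in MI_ART (log2 5.51 ± 0.54). Of 24 matricellular and proteoglycan genes, 18 rose and 1 fell (median 1.52). Tnc, tenascin C of wound edges, was at 1.60, 1.90 and 0.651 CPM in Sham and at 182, 170 and 142 CPM in MI_ART (log2 6.89 ± 0.43, adjusted p = 5.12e-05). Postn, periostin of activated fibroblasts, rose from 90.2, 122 and 83.1 CPM to 730, 771 and 829 CPM. Fmod, the small proteoglycan fibromodulin, was the member that fell, from 14.6 to 16.6 CPM in Sham to 3.53 to 7.28 CPM in MI_ART. Its call (adjusted p = 0.0237) was lost when any Sham library, MI_ART 1 or MI_ART 3 was left out, and with total-count scaling.

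Of 24 genes for metalloproteinases and other matrix-cleaving enzymes or their inhibitors, 15 were higher and 1 lower (median 2.10). Timp1, an inhibitor of metalloproteinases, rose from 3.43, 2.07 and 1.67 CPM to 127, 101 and 112 CPM (log2 5.57 ± 0.48). Timp4, the inhibitor most typical of heart muscle, went the other way, from 21.7, 22.0 and 40.2 CPM to 3.39, 4.94 and 11.2 CPM (log2 -2.10 ± 0.49, adjusted p = 0.0146), a call lost without Sham 3, MI_ART 1 or MI_ART 2. Of 25 TGF-beta genes, 9 rose and 1, Bmp6, fell (median 0.61), and 5 rose without MI_ART 1 or without Sham 3, and 17 with total-count scaling. The ligand Tgfb1 was at 8.68, 7.37 and 7.07 CPM in Sham and at 23.5, 16 and 21.8 CPM in MI_ART. Its groups did not overlap (log2 1.41 ± 0.38, adjusted p = 0.0285), but the call was lost by limma-voom and when any Sham library, MI_ART 1 or MI_ART 3 was left out. Gdf15, a stress-induced ligand of this family, rose from 0.166 to 0.536 CPM to 4.27 to 5.60 CPM, and Ltbp2, a matrix protein of the latent TGF-beta binding family, from 4.90 to 6.47 CPM to 38.8 to 51.7 CPM.

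Fibroblast markers divided by state. Of 15 genes of activated fibroblasts and myofibroblasts, 10 rose, 1 fell and the median was 1.32. The other 4 were not called, among them the contractile genes Acta2 and Tagln, which are also on the smooth muscle list. Cthrc1, a marker of scar fibroblasts, was at 0.756, 0.533 and 0.249 CPM in Sham and at 43.7, 45.1 and 57.2 CPM in MI_ART (log2 6.56 ± 0.38, adjusted p = 4.07e-05). The gene that fell was Lrrc15, a membrane protein of myofibroblasts, from 37.4, 30.3 and 29.7 CPM to 10.5, 11.0 and 16.4 CPM (adjusted p = 0.0104). Its call was lost without MI_ART 1 and with total-count scaling. Of 14 genes of resting fibroblasts, 1 rose and 2 fell (7.14% and 14.3%, against 12.9% and 7.41% of all tested genes, median -0.01). With total-count scaling 6 rose, none fell and the median turned to 0.74.

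Inflammatory genes rose in number and by large factors. Of 28 chemokine genes and receptors tested, 23 rose and 1 fell, their median change on the log2 scale being 3.19, or 2.91 with the 2 genes absent from Sham set at their lower bound. The monocyte attractant Ccl2 was at 2.27, 1.28 and 1.51 CPM in Sham and at 34.3, 16.6 and 22.8 CPM in MI_ART (log2 3.86 ± 0.40, adjusted p = 0.000263). Its receptor Ccr2, which marks recruited monocytes, was at 4.13, 4.72 and 6.59 CPM and at 51.9, 54.8 and 57.6 CPM, with narrow groups (log2 3.41 ± 0.20, adjusted p = 4.07e-05). The fall was in Ccl11, the eosinophil attractant, from 3.85 to 5.00 CPM in Sham to 1.21 to 1.86 CPM in MI_ART (adjusted p = 0.0117), a call lost without MI_ART 1 and with total-count scaling.

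Of 28 cytokines and cytokine receptors, 23 rose and none fell (median 2.57, or 2.20 with 2 genes at their bound). Il1b, the cytokine released by inflammasomes, was at 0.406, 0.118 and 0.479 CPM in Sham and at 9.85, 4.70 and 10.8 CPM in MI_ART (log2 4.65 ± 0.55). Il6, a cytokine of the acute phase, had 4 counts over the 3 Sham libraries and stood at 1.89, 1.53 and 2.02 CPM in MI_ART. In the inflammasome list, 12 of 18 rose and none fell (median 1.16). Nlrp3, the sensor of the best studied inflammasome, rose from 0.571, 0.355 and 0.613 CPM to 2.84, 1.69 and 3.27 CPM (log2 2.33 ± 0.35, adjusted p = 0.00167). Of 20 complement genes, 9 rose and none fell (14 rose with total-count scaling). C3ar1, a receptor for a complement fragment, rose from 8.15 to 11.5 CPM to 62.5 to 119 CPM. Interferon-induced genes rose in 9 of 23 cases (median 0.69), and 5 rose without MI_ART 3, without Sham 1 or without Sham 2. There were 16 with a replicate block and 22 with total-count scaling. The block gives MI 4 its own term, as its number occurs in no other library. Mx1 was at 7.75, 7.5 and 18.7 CPM in MI_ART, highest in MI_ART 3, against 1.44, 1.8 and 1.72 CPM in Sham.

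Markers of the immune cells themselves showed where the 3 treated libraries differed. Of 21 macrophage and monocyte markers, 18 rose and none fell (median 2.86), and their summed level was 392 to 583 CPM in Sham and 2114 to 4093 CPM in MI_ART. Gpnmb, a protein of lipid-loaded macrophages, was at 3.10, 2.76 and 2.89 CPM in Sham and at 102, 46.3 and 116 CPM in MI_ART (log2 4.92 ± 0.39). Of 13 neutrophil markers, 9 were tested and 8 rose (median 5.47), or 3 by limma-voom. The 9 tested markers summed to 1.86 to 3.02 CPM in Sham and to 25.2 to 123 CPM in MI_ART. With the untested markers included, the 13 summed to 1.86 to 47.9 CPM in Sham and to 25.2 to 123 CPM in MI_ART, which overlapped. S100a9, a calcium-binding alarmin of neutrophils, was at 0.221, 0.316 and 0.230 CPM in Sham and at 20.7, 2.61 and 10.8 CPM in MI_ART. MI_ART 2 was the lowest treated library for S100a9, Csf3r, Trem1 and Mmp8 alike, and above every Sham library in each. Csf3r, the granulocyte colony-stimulating factor receptor, was at 42.8, 12.0 and 30.5 CPM in MI_ART and at 0.848 to 1.11 CPM in Sham.

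Lymphocyte markers were at low levels. Of 15 T and NK cell markers, 2 rose and none fell (median 1.02), and 1 of 10 B cell markers rose. These shares, 13.3% and 10%, are close to the 12.9% of all tested genes called higher. With total-count scaling 5 and 2 rose. Il7r, the interleukin 7 receptor of T cells, was at 0.682, 0.257 and 0.230 CPM in Sham and at 3.87, 2.09 and 4.81 CPM in MI_ART, and the summed T and NK level was 4.38 to 6.84 CPM against 8.44 to 13.6 CPM. Dendritic and mast cell markers rose in 4 of 12 cases (33.3%, against 12.9% of all tested genes). Among them was Flt3, the receptor tyrosine kinase of dendritic cell precursors, at 1.32, 1.28 and 3.24 CPM in MI_ART and at 0.0737, 0 and 0.172 CPM in Sham. Of 28 lysosome and phagocytosis genes, 20 rose and none fell (median 1.39). Trem2, a lipid receptor of phagocytes, rose from 2.62 to 3.49 CPM to 37.9 to 63.1 CPM, and Cd68, a lysosomal glycoprotein of macrophages, from 8.33 to 9.49 CPM to 80.8 to 144 CPM.

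Proliferation genes rose by large factors. Of 30 genes of the G2/M phase and mitosis, 28 rose and none fell, with a median log2 fold change of 4.50 (4.90 in MI), and 28 rose whichever library was left out. Mki67, a nuclear protein of cycling cells, was at 2.71, 1.18 and 1.42 CPM in Sham and at 65.3, 40.8 and 57.9 CPM in MI_ART (log2 4.94 ± 0.38, adjusted p = 0.000117). Ccnb1, the cyclin of mitotic entry, was at 0.172 to 0.387 CPM and at 12.2 to 15.6 CPM (log2 5.56 ± 0.33). Of 30 genes of G1/S and DNA replication, 23 rose and none fell (median 1.77). Mcm6, a subunit of the replicative helicase, rose from 7.60, 9.22 and 8.89 CPM to 43.2, 31.3 and 39.0 CPM. Of 20 immediate early genes, transcription factors induced within minutes of a stimulus, 14 rose and none fell (median 1.55). Fos was at 1.11, 0.296 and 0.153 CPM in Sham and at 26.3, 30.7 and 15.9 CPM in MI_ART, and Egr1 at 5.94 to 8.13 CPM and at 28.1 to 50.3 CPM.

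**Figure D2:**
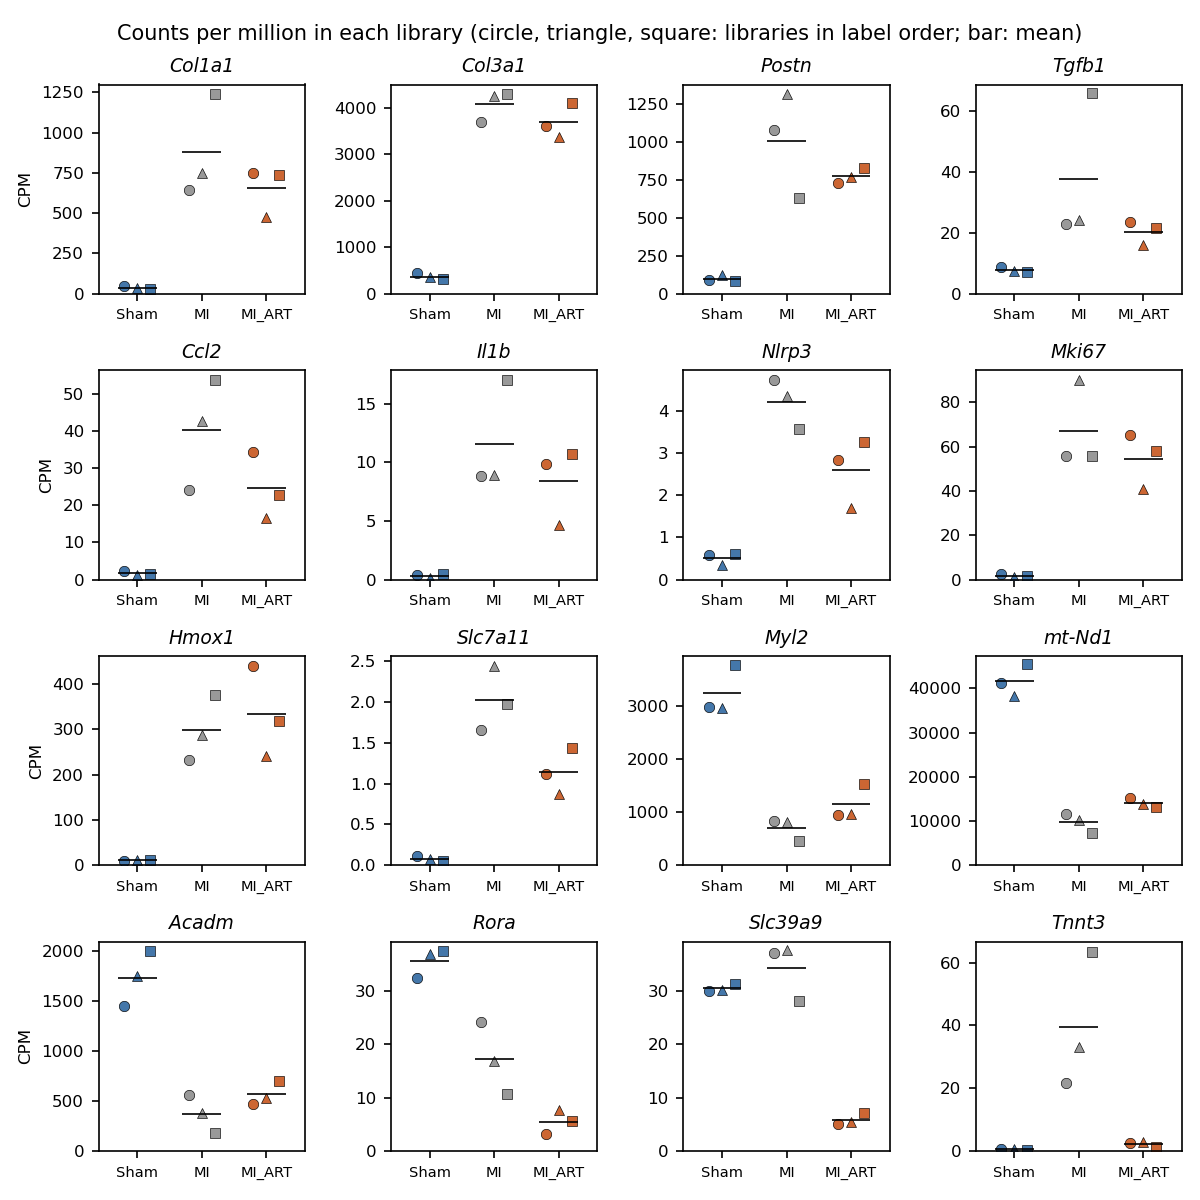
CPM (linear y axes from 0, each gene on its own scale) in each of the 9 libraries for 16 genes, by group on the x axis, with a bar at the group mean. The Sham and MI_ART points do not overlap in any of the 16 panels, MI_ART 2 is the lowest treated library for Col1a1, Ccl2, Il1b and Mki67, and Slc39a9 is low in the 3 MI_ART libraries alone.

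The oxidative genes of heart muscle were lower. Of 26 nuclear-encoded subunits of complex I, the entry point of the respiratory chain, 26 fell (median log2 -1.05), and in each of them the 3 MI_ART libraries lay below the 3 Sham libraries, against 22.8% of all tested genes. Ndufa9 was at 539, 555 and 645 CPM in Sham and at 228, 269 and 283 CPM in MI_ART (log2 -1.16 ± 0.17, adjusted p = 0.00143). Complexes II to V fell in 28 of 31 cases (median -1.02), among them Atp5b, the catalytic subunit of ATP synthase, at 5241, 5734 and 5687 CPM in Sham and at 2386, 2828 and 2772 CPM in MI_ART. MI_ART 1 was the lowest library for Ndufa9 and Atp5b, and without it 16 complex I and 17 complex II to V genes fell. With total-count scaling 0 and 1 of them fell, since the median of all genes moved up. The medians were then -0.30 and -0.27. Taking the shift of all genes off again gives -1.04 and -1.01, which only undoes the change of scaling and is no separate test.

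The 13 messenger RNAs of the mitochondrial genome fell without exception (median -1.56, -2.09 in MI). mt-Nd5, a subunit of complex I, was at 42721, 39214 and 46631 CPM in Sham and at 14619, 11543 and 10832 CPM in MI_ART (log2 -1.8 ± 0.22, adjusted p = 0.000614), and 10 of the 13 fell with total-count scaling as well. These genes have copies in the nuclear genome, and how reads matching both were counted is not given in the sources used here. The leucine transfer RNA mt-Tl2 was among the genes of largest decrease, from 40.8, 34.0 and 18.8 CPM to 5.74, 3.05 and 3.33 CPM.

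Fatty acids are the main fuel of the adult heart. Of 29 genes of fatty acid uptake and oxidation, 22 fell and none rose (median -1.24), and 7 fell and 2 rose with total-count scaling. Acaa2, a thiolase of the last step of beta-oxidation, was at 1147, 1207 and 1401 CPM in Sham and at 368, 440 and 533 CPM in MI_ART (log2 -1.49 ± 0.22, adjusted p = 0.00162). Slc25a20, which carries acylcarnitines into mitochondria, fell from 236, 243 and 258 CPM to 86.2, 92.9 and 113 CPM. Of 20 genes of the tricarboxylic acid cycle and pyruvate entry, 18 fell (median -1.10). Mpc2, a subunit of the mitochondrial pyruvate carrier, fell from 296, 313 and 321 CPM to 119, 134 and 155 CPM. The count of 18 dropped to 8 without MI_ART 1, 9 without Sham 3, 10 without MI_ART 2 and 11 without MI_ART 3, and to 0 with total-count scaling.

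Glycolysis genes split, with 6 higher and 4 lower of 24 (25% and 16.7%, against 12.9% and 7.41% of all tested genes, median 0.01). There were 3 higher without Sham 3, MI_ART 1 or MI_ART 3, and 13 higher with total-count scaling. Those that rose included Hk3, the hexokinase of myeloid cells, from 0.474 to 1.31 CPM to 10.4 to 21.6 CPM, and Slc16a3, a lactate exporter, from 0.919 to 1.79 CPM to 12.1 to 27.0 CPM. Those that fell were isoforms of muscle and heart. Pfkm, muscle phosphofructokinase, was at 906, 972 and 884 CPM in Sham and at 403, 488 and 517 CPM in MI_ART, and Slc2a4, the insulin-regulated glucose transporter, at 336, 418 and 326 CPM and at 169, 197 and 191 CPM. Eno3 and Ldhb also fell. None of the 4 fell with total-count scaling. Among 16 mitochondrial and metabolic regulators 5 fell (31.25%, against 7.41% of all tested genes) and none rose (median -0.71). Tfam, which packages mitochondrial DNA, fell from 52.9, 53.8 and 67.3 CPM to 33.4, 32.9 and 34.1 CPM. The count of 5 was unstable, at 0 without Sham 3, MI_ART 1 or MI_ART 2, 1 without MI_ART 3, 2 without Sham 2 and 9 without MI 4. With total-count scaling none fell, 3 rose and the median turned to 0.042.

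Sarcomere genes of the adult heart fell in 15 of 24 cases and rose in none (median -0.82). Tnni3, cardiac troponin I, was at 3369, 3096 and 3886 CPM in Sham and at 1161, 1544 and 1596 CPM in MI_ART (log2 -1.27 ± 0.19, adjusted p = 0.00175). Tcap, which anchors titin at the Z-disc, fell from 2143, 2224 and 2384 CPM to 488, 919 and 840 CPM. The count was 6 without Sham 3 or MI_ART 1, 9 without Sham 1, MI_ART 2 or MI_ART 3, and 3 with total-count scaling. Of 22 fetal and stress genes of the heart, 10 rose and none fell (median 0.52, 1.06 in MI), 6 without MI_ART 1 and 16 with total-count scaling. Nmrk2, a nicotinamide riboside kinase induced in stressed muscle, rose from 5.68, 3.95 and 3.35 CPM to 49.8, 112 and 82.8 CPM, where MI stood at 211, 273 and 318 CPM. Runx1, a transcription factor re-expressed in injured muscle and abundant in blood cells, rose from 1.5 to 1.93 CPM to 10.2 to 14.7 CPM.

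Of 24 calcium handling genes, 4 fell (16.7%, against 7.41% of all tested genes) and 2 rose (8.33%, against 12.9%), with a median of -0.49. Scaled to total counts, 1 fell, 6 rose and the median turned to 0.23. Hrc, a calcium buffer of the sarcoplasmic reticulum, fell from 827, 779 and 817 CPM to 229, 260 and 269 CPM (log2 -1.68 ± 0.26, adjusted p = 0.00191), and Pln, the brake on the calcium pump, from 1467, 1556 and 2229 CPM to 658, 596 and 763 CPM. The pump itself, Atp2a2, was at 12065, 13642 and 11538 CPM in Sham and at 5624, 6846 and 5402 CPM in MI_ART, without overlap but with an adjusted p of 0.0682. Ryr2, the calcium release channel, was at 887 to 1245 CPM in Sham and at 614 to 726 CPM in MI_ART (adjusted p = 0.226). Sri and Fkbp1b, partners of that channel, rose by 0.60 ± 0.16 and 1.14 ± 0.29 log2. Strit1, a micropeptide that activates the pump, was among the largest decreases at a low level, with 169 counts over the Sham libraries and 0.111, 0.0375 and 0 CPM in MI_ART against 0.995 to 1.19 CPM in Sham. Its call (adjusted p = 0.0463) was lost without any single Sham or MI_ART library, MI 2 or MI 3. It was also lost with total-count scaling and with no filter on low counts. The 4 calls fell to 1 without MI_ART 1 and to 2 without MI_ART 2 or MI_ART 3, and rose to 8 without MI 4. The 2 increases were 1 without any single Sham library, MI_ART 1 or MI_ART 2, and 0 without MI_ART 3.

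Potassium channel genes fell in 7 of 23 cases and rose in 1 (30.4% and 4.35%, against 7.41% and 12.9% of all tested genes). Their median was -0.76 (-1.30 in MI). Kcnj8, the pore of the ATP-sensitive channel of vessels and muscle, was at 42.8, 44.9 and 42.4 CPM in Sham and at 22.6, 22.6 and 22.8 CPM in MI_ART (log2 -0.94 ± 0.17, adjusted p = 0.00448). Kcnj5, a subunit of the acetylcholine-activated atrial channel, fell from 103, 65.2 and 71.4 CPM to 39.0, 48.9 and 25.7 CPM. Kcnn4, a calcium-activated channel of leukocytes and fibroblasts, was the increase, from 0.415 to 1.03 CPM to 4.80 to 8.09 CPM. Kcna5, the ultrarapid atrial channel, was at 8.39, 7.23 and 8.94 CPM in Sham and at 4.90, 5.60 and 9.43 CPM in MI_ART, overlapping and not called (adjusted p = 0.507). The 7 decreases became 2 without MI_ART 1 or MI_ART 3, 3 without Sham 1 or Sham 2, 4 without MI_ART 2, 12 without MI 4 and 1 with total-count scaling.

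Of 20 sodium, calcium and pacemaker channel genes, 3 rose and 2 fell (median -0.20). At 15% and 10% these shares are near the 12.9% and 7.41% of all tested genes, and with total-count scaling 5 rose, none fell and the median turned to 0.53. The stretch-gated channels Piezo1 and Piezo2 rose, Piezo2 from 1.57, 1.30 and 1.07 CPM to 4.96, 7.16 and 6.11 CPM (log2 2.21 ± 0.28) and Piezo1 from 18.4 to 27.2 CPM to 38.3 to 48.2 CPM. Scn4b, an auxiliary subunit of sodium channels, fell from 47.0, 58.9 and 47.2 CPM to 12.0, 18.4 and 11.5 CPM (adjusted p = 0.0186). The decreases numbered 0 without Sham 2, Sham 3, MI_ART 1 or MI_ART 3, 1 without Sham 1 and 6 without MI 4, and the increases 1 without Sham 3 or MI_ART 1. Cacna1c, the L-type calcium channel, was at 150, 231 and 110 CPM and at 118, 134 and 117 CPM, within the Sham range. The connexins of atrial conduction were not called either. Gja1 was at 440 to 709 CPM in Sham and at 470 to 523 CPM in MI_ART (log2 -0.28 ± 0.34), and Gja5 at 16.4 to 39.9 CPM and at 17.2, 36.4 and 6.47 CPM (log2 -0.45 ± 0.52). Of 19 genes of gap junctions and intercalated discs 2 fell (10.5%, against 7.41% of all tested genes), Dsg2 and Ctnna3, at adjusted p of 0.0405 and 0.0425. Both calls were lost when any single Sham or MI_ART library, or MI 3, was left out, and with no filter on low counts. Without MI 4, 8 genes of the list were called. With total-count scaling 2 genes of the list rose, none fell and its median turned from -0.39 to 0.34.

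Natriuretic peptides differed between each other. Nppb, a stretch-induced peptide, was at 85.8, 34.3 and 84 CPM in Sham and at 227, 246 and 135 CPM in MI_ART (log2 1.57 ± 0.37, adjusted p = 0.0144, 0.0537 without MI_ART 1), where MI stood at 388, 454 and 599 CPM. Nppa, the atrial peptide, was at 4872, 1177 and 3972 CPM in Sham and at 2313, 9757 and 1293 CPM in MI_ART. Its MI_ART libraries spanned the whole Sham range (log2 0.42 ± 0.71, adjusted p = 0.74), and without MI_ART 2 the estimate was -0.85. In MI, Nppa was at 11540, 11451 and 20599 CPM.

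The spread of Nppa went with that of atrial muscle markers. Myl7, the atrial regulatory light chain, was at 822, 168 and 576 CPM in Sham and at 173, 803 and 1.96 CPM in MI_ART. The essential light chain of the atrium, Myl4, was at 1235, 298 and 1103 CPM and at 268, 1474 and 6.21 CPM. MI_ART 3 thus held almost no transcript of genes that atrial muscle expresses abundantly. MI_ART 2 lay near the top of the Sham range for Myl7 and above that range for Myl4. Sln, the atrial inhibitor of the calcium pump, was at 95.8, 333 and 0.74 CPM in MI_ART, and Mybphl at 46.1, 225 and 0.62 CPM. Of 18 atrial markers 1, Clu, rose (5.56%, against 12.9% of all tested genes) and none fell (median -0.50). Scaled to total counts, 3 rose and the median was 0.24. The median of the list relative to Sham was -0.78 in MI_ART 1, 0.40 in MI_ART 2 and -1.74 in MI_ART 3.

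Ventricular markers were present in the labelled atria and were lower in MI_ART. Their summed level was 15603 to 17832 CPM in Sham and 6372 to 8832 CPM in MI_ART, and 5 of 12 fell (median -1.04), 3 without Sham 3 or any single MI_ART library, 9 without MI 4 and 2 with total-count scaling. Myl2, the ventricular regulatory light chain, was at 2989, 2967 and 3786 CPM in Sham and at 946, 978 and 1537 CPM in MI_ART (log2 -1.49 ± 0.28, adjusted p = 0.00559). MI_ART 3 had the most Myl2 of the treated libraries and the least Myl7. How far the mix of atrial and ventricular tissue enters the channel, calcium and sarcomere results was not tested. Without MI_ART 3, 11 of 13 mitochondrial messenger RNAs, 22 complex I genes, 9 sarcomere genes and 16 collagens were called in those directions.

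Fat and blood markers varied in the same libraries. The median of 12 white adipocyte markers relative to Sham was -1.40, 0.64 and -2.39 in MI_ART 1, 2 and 3. Among these markers 1 fell (8.33%, against 7.41% of all tested genes), and none fell under total-count scaling. Adipoq, the fat hormone adiponectin, was at 4.29, 24.8 and 0.88 CPM in MI_ART and at 11.1 ± 3.98 CPM in Sham (SD, n = 3). The globin Hbb-bs was at 527, 44.0 and 230 CPM in MI_ART and at 170 to 284 CPM in Sham, and none of 6 erythroid markers was called. Blood endothelium markers fell in 5 of 16 cases (31.25%, against 7.41% of all tested genes, median -0.45). The count was 2 without Sham 2, Sham 3 or any single MI_ART library and 3 without Sham 1 or MI 3. Markers of smooth muscle and pericytes fell in 4 of 14 (28.6%, median -0.37). That count was 2 without any single Sham library, MI_ART 2 or MI_ART 3 and 1 without MI_ART 1. Scaled to total counts neither list had a decrease. Then 2 endothelial and 3 smooth muscle or pericyte markers rose, and the medians turned to 0.28 and 0.35. Aqp1, a water channel of capillaries, was at 340, 393 and 369 CPM in Sham and at 117, 185 and 154 CPM in MI_ART, and Rgs5, a pericyte marker, at 850 to 946 CPM and at 476 to 514 CPM. Of 11 epicardial and mesothelial markers 4 rose (36.4%, against 12.9% of all tested genes), 2 without Sham 2 or Sham 3 and 7 with total-count scaling. They included Aldh1a2, the retinoic acid enzyme of activated epicardium, from 14.6, 8.73 and 11.2 CPM to 77.1, 55.5 and 45.2 CPM.

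A set of 15 brain transcripts was assembled after the values had been seen, so the set as such was not tested. It was highest in MI_ART 1 for 15 of 15 genes, which the choice of genes may have fixed. Their summed level was 114 CPM in MI_ART 1, 6.08 CPM in MI_ART 2, 4.51 CPM in MI_ART 3 and 0.900 to 1.88 CPM in Sham. In MI 2, 3 and 4 it was 5.85, 8.16 and 12.6 CPM, so every infarcted library lay above the Sham range. The set included neuronal genes (Tbr1, Neurod6, Gad1, Syt1), genes of glia and myelin (Gfap, Mobp, Mog) and the choroid plexus gene Ttr. Of the 15 genes, 11 had enough counts to be tested in the comparison and 8 of these were called higher (Hpca, Cpne6, Snap25, Syt1, Nrgn, Rbfox3, Mobp and Ttr). Without MI_ART 1, 1 of them, Hpca, was called. The set was chosen from the same values, so these counts of calls are no separate support for it. Snap25, a synaptic vesicle fusion protein, was at 16.4, 0.363 and 0.210 CPM in MI_ART (adjusted p = 0.0367, 0.274 without MI_ART 1). The neuronal calcium sensor Hpca, at 14.6, 0.250 and 0.542 CPM, and the copine Cpne6, at 6.84, 0.05 and 0.136 CPM, had no count in Sham and stood among the largest increases. Without MI_ART 1 the adjusted p was 0.00858 for Hpca and 0.0772 for Cpne6.

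**Figure D3:**
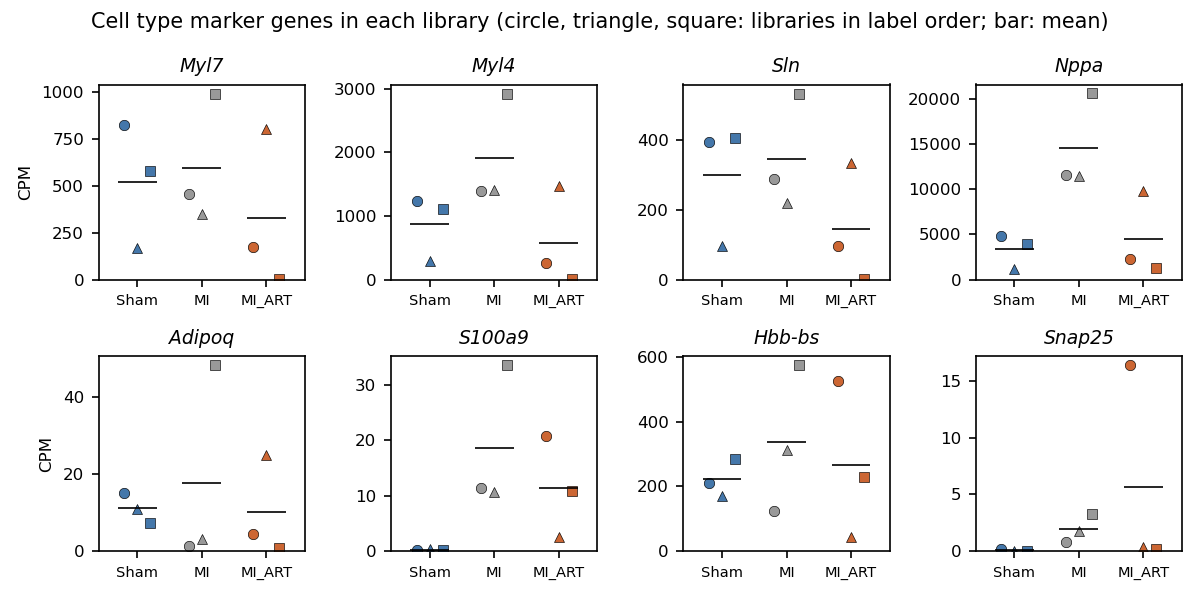
CPM (linear y axes from 0, each gene on its own scale) of 8 cell type marker genes in each of the 9 libraries, by group on the x axis, with a bar at the group mean. Among the MI_ART libraries, the square (MI_ART 3) lies near 0 for Myl7, Myl4 and Sln, the triangle (MI_ART 2) is highest for these and Adipoq and lowest for S100a9 and Hbb-bs, and the circle (MI_ART 1) is alone at 16.4 CPM for Snap25.

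Of 28 genes of iron and haem handling, 5 rose (17.9%, against 12.9% of all tested genes) and 3 fell (10.7%, against 7.41%), with a median of 0.09. Hmox1, which degrades haem and frees its iron (chromosome 8 in GRCm38), was at 10.4, 11.5 and 11.0 CPM in Sham and at 441, 241 and 317 CPM in MI_ART (log2 4.93 ± 0.29, adjusted p = 4.07e-05), where MI stood at 232, 288 and 376 CPM. The ferritin light chain Ftl1 rose from 188, 176 and 191 CPM to 1084, 715 and 1081 CPM (log2 2.37 ± 0.36). Slc11a1, an iron exporter of phagosomes, rose from 2.78 to 3.46 CPM to 19.2 to 37.4 CPM. Fech, which inserts iron into haem, fell from 147, 163 and 138 CPM to 55.4, 62.8 and 64.5 CPM (adjusted p = 0.0051), a call lost with total-count scaling. Alas1, the first step of haem synthesis, fell from 128 to 197 CPM to 74.8 to 104 CPM (adjusted p = 0.0205), a call lost without Sham 1, Sham 3, MI_ART 1 or MI_ART 2 and with total-count scaling (log2 -0.13). The transferrin receptor Tfrc was at 169, 54.7 and 74.7 CPM and at 99.3, 98.4 and 91.7 CPM, inside the Sham range. The increases of the list were 3 without Sham 2 or MI_ART 1, 9 without MI 4 and 17 with total-count scaling. The decreases were 1 without Sham 1, Sham 3 or MI_ART 1, and 0 with total-count scaling, which turned Cp to a log2 of 0.08.

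Of 29 ferroptosis and glutathione genes, 8 rose and 5 fell (27.6% and 17.2%, against 12.9% and 7.41% of all tested genes, median -0.07). Slc7a11, the cystine importer that feeds glutathione synthesis, was at 0.111, 0.0790 and 0.0574 CPM in Sham, 13 counts in all, and at 1.12, 0.875 and 1.44 CPM in MI_ART (log2 3.77 ± 0.44). Gpx1, the cytosolic glutathione peroxidase, rose from 70.1 to 90.9 CPM to 172 to 246 CPM. Gpx4, the peroxidase that guards membrane lipids from ferroptosis, was at 397, 396 and 444 CPM and at 271, 304 and 321 CPM, without overlap but not called (adjusted p = 0.16), and its log2 estimate of -0.47 turned to 0.28 with total-count scaling. Among those that fell were the glutathione transferases Gsta4, Gstm1 and Gsta3, Gsta4 from 77.9, 59.0 and 88.2 CPM to 27.6, 41.8 and 37.1 CPM. The increases were 4 without Sham 3 or MI_ART 1, 5 without Sham 1 or Sham 2 and 15 with total-count scaling. The decreases were 2 without Sham 1, MI_ART 2 or MI_ART 3, 3 without Sham 3 or MI_ART 1, and 0 with total-count scaling, under which the median turned to 0.67.

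Stress response genes of the endoplasmic reticulum and translation rose in 10 of 23 cases and fell in 2 (median 0.48). Mthfd2, a mitochondrial folate enzyme induced by ATF4, rose from 3.28, 2.33 and 3.20 CPM to 12.7, 10.6 and 11.5 CPM (log2 1.98 ± 0.22, adjusted p = 0.000369). Phgdh, which opens serine synthesis, rose from 0.881 to 1.25 CPM to 5.85 to 10.8 CPM. Herpud1 and Dnajb9, of protein degradation and folding in the reticulum, were the decreases, Herpud1 from 210, 229 and 244 CPM to 97.6, 117 and 108 CPM (log2 -1.08 ± 0.19). A single gene of the list was called lower when any 1 Sham or MI_ART library was left out, and none with total-count scaling, which turned Dnajb9 to 0.10. Of 18 heat shock genes and chaperones 3 rose and 3 fell (16.7% each, against 12.9% and 7.41% of all tested genes), with a median of -0.23. Hspa1b was at 2.41 to 3.06 CPM in Sham and 7.13 to 8.06 CPM in MI_ART. The mitochondrial chaperone Hspd1 was at 549 to 653 CPM and 292 to 341 CPM. The increases numbered 1 without Sham 1 or any single MI_ART library and 8 with total-count scaling, which turned the median to 0.52. The decreases numbered 1 without Sham 1 and 0 without Sham 2, Sham 3 or any single MI_ART library, and 0 with total-count scaling.

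Hypoxia response genes rose in 4 of 20 cases and fell in 3 (20% and 15%, against 12.9% and 7.41% of all tested genes, median 0.10). Egln1, the oxygen-sensing prolyl hydroxylase, fell from 322, 379 and 297 CPM to 172, 167 and 161 CPM, and P4ha1, a collagen hydroxylase, rose from 43.3 to 51.8 CPM to 80.1 to 95.6 CPM. The increases were 2 without Sham 3 and 12 with total-count scaling, and the decreases 1 without MI_ART 1, 5 without MI 4 and 0 with total-count scaling. Of 22 genes of xenobiotic metabolism, 9 fell and 2 rose (median -0.84, -1.51 in MI). Ces1d, a carboxylesterase of fat and liver, was at 160, 187 and 169 CPM in Sham and at 20.7, 46.9 and 26.2 CPM in MI_ART (log2 -2.46 ± 0.34, adjusted p = 0.00111). Cyp1a1, the classical target of the aryl hydrocarbon receptor, was at 1.59, 1.62 and 2.03 CPM in Sham and at 0, 0.2 and 0.0986 CPM in MI_ART (adjusted p = 0.0277), and it had no count in MI. The call was lost without any single Sham library or MI_ART 3. Cyp1b1 went up, from 1.47, 8.35 and 13.3 CPM to 31.9, 23.1 and 40.6 CPM (adjusted p = 0.0409). Its call was lost without Sham 2, MI 2, MI 3 or any single MI_ART library, and with no filter on low counts. The 9 decreases were 4 without Sham 2 or MI_ART 1, 5 without MI_ART 3, and 4 with total-count scaling, under which 5 genes rose.

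Clock genes fell in 10 of 19 cases and rose in none (median -0.69, -1.05 in MI), 6 without Sham 2, and the median turned to 0.05 with total-count scaling, under which 4 rose and 3 fell. Rora, a nuclear receptor that drives the Bmal1 gene (chromosome 9 in GRCm38), was at 32.6, 37.0 and 37.6 CPM in Sham and at 3.12, 7.63 and 5.66 CPM in MI_ART. The groups were far apart (log2 -2.71 ± 0.37, adjusted p = 0.00099), and MI stood between them at 24.2, 17.0 and 10.6 CPM. The output regulators Dbp, at 114, 155 and 124 CPM in Sham and 35.4, 68.2 and 56.1 CPM in MI_ART, and Hlf, at 28.5 to 35.2 CPM and 7.70 to 10.5 CPM, fell as well. The time of day of collection is not given in the labels, so it cannot be told apart from the groups if it differed.

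Slc39a9, a zinc transporter of the Golgi and plasma membrane, was 1 of the 2 genes that differed between MI_ART and MI. It lies on chromosome 12 from 80643883 to 80683342 (GRCm38), where RefSeq places the gene Erh in overlap. It was at 29.9, 30.2 and 31.2 CPM in Sham, at 37.1, 37.5 and 28.1 CPM in MI and at 5.08, 5.49 and 7.03 CPM in MI_ART. The Sham and MI libraries overlapped and the MI_ART libraries lay far below both. MI_ART was 5.19-fold below Sham (log2 -2.37 ± 0.19, adjusted p = 0.000131) and 5.83-fold below MI (log2 -2.54 ± 0.19, adjusted p = 0.00277). Against Sham the call held with each alternative run, including total-count scaling (log2 -1.63). Of the 22 zinc transporters and metallothioneins 2 fell, Slc39a9 and Slc30a9, and 4 rose, among them Slc39a11 from 2.56 to 3.26 CPM to 7.48 to 9.59 CPM and Slc39a6 from 5.25 to 6.76 CPM to 14.8 to 19.5 CPM. The shares of 18.2% higher and 9.09% lower stand beside 12.9% and 7.41% of all tested genes. The increases were 2 without Sham 1, Sham 2 or MI_ART 1, 7 without MI 4 and 14 with total-count scaling, and the decreases 1 without any single Sham or MI_ART library and with total-count scaling, which turned Slc30a9 to 0.04. Erh was at 29.2 ± 3.22 CPM in Sham and 39.9 ± 4.01 CPM in MI_ART (SD, n = 3 each) and was not called (adjusted p = 0.143).

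Tnnt3, the troponin T of fast skeletal muscle (chromosome 7 in GRCm38), was the other gene called against MI. It was at 0.774, 0.671 and 0.421 CPM in Sham, at 21.8, 33.1 and 63.5 CPM in MI and at 2.42, 2.80 and 1.29 CPM in MI_ART. The 3 groups did not overlap. MI_ART was 3.48-fold above Sham (adjusted p = 0.0202) and 18.2-fold below MI (adjusted p = 0.0447). The call against Sham was lost by limma-voom and without Sham 2, Sham 3, MI_ART 1 or MI_ART 2, with adjusted p of 0.0594 to 0.0851 in those 4. Of 13 skeletal muscle isoforms 1, Tnnt3, rose and 1, the muscle creatine kinase Ckm, fell. These shares of 7.69% each stand beside 12.9% and 7.41% of all tested genes. Ckm, which is also on the ventricular list, fell from 2249, 2373 and 2311 CPM to 650, 767 and 995 CPM.

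The largest increases were of genes with no count in Sham, so their folds are lower bounds, set against 3 counts in each Sham library. Apoc2, an apolipoprotein of macrophages and liver, was at 10.8, 3.71 and 8.35 CPM in MI_ART, at least 133-fold higher. Depdc1a, a mitotic regulator, was at 6.12, 3.56 and 8.05 CPM (at least 103-fold), and Marco, a scavenger receptor of macrophages, at 2.85, 2.04 and 7.22 CPM (at least 70.4-fold), where MI stood at 11.4, 11.3 and 16.6 CPM. Sirpb1b, Mmp8, Steap1, Crct1 and Gdf3 followed, at bounds of 42.3-fold to 78.6-fold. The bound of Mmp8 was 64.6-fold, and 35.1-fold without MI_ART 1. Hpca and Cpne6 completed the 10, at bounds of 89.5-fold and 40.8-fold that rest on MI_ART 1, the library with brain transcripts, and without it the bounds were 6.91-fold and 1.62-fold. Sirpb1b belongs to a family of near-identical genes between which reads may have been split. Of these 10 genes, MI_ART 2 was the lowest of the treated libraries for Apoc2, Depdc1a, Sirpb1b, Marco, Mmp8, Steap1 and both neuronal genes.

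Other large decreases were at low to middling levels. Fbxo34, an F-box protein, was at 16.1, 7.82 and 9.54 CPM in Sham and at 0.296, 0.413 and 0.419 CPM in MI_ART (log2 -4.88 ± 0.92, adjusted p = 0.00536), and MI varied from 0.151 to 3.44 CPM. Inmt, a methyltransferase of lung and stroma, was at 33.9, 28.1 and 32.9 CPM in Sham and at 1.44, 6.26 and 1.18 CPM in MI_ART, highest in MI_ART 2. Clec18a, Helt, Cdhr3 and Cfap54 fell at low levels. Helt, a transcriptional repressor, fell from 1.07 to 2.36 CPM in Sham to 0.0740 to 0.296 CPM in MI_ART. The calls of Clec18a and Helt were lost without any single Sham or MI_ART library and with no filter on low counts. That of Helt was also lost without MI 3 and with total-count scaling. The 12 markers of lung epithelium summed to 667, 184 and 257 CPM in Sham and to 71.4 to 98.1 CPM in MI_ART. The excess of Sham 1 came mostly from airway genes that had no count in Sham 2 and Sham 3, among them the secreted airway protein Bpifa1 at 245 CPM and the club cell secretoglobin Scgb1a1 at 123 CPM. Hopx, which the heart also expresses, made up nearly all of the sum in the other libraries and was the list's call, at 209, 183 and 257 CPM in Sham and 70.2, 80.7 and 96.6 CPM in MI_ART. Cdhr3, at 1.86, 0.711 and 0.517 CPM in Sham, and Cfap54, at 1.95, 0.257 and 0.881 CPM, were highest in Sham 1. Both calls were lost without Sham 1 (adjusted p = 0.0782 and 0.133). The Cdhr3 call was also lost without MI_ART 1 or MI_ART 2. That of Cfap54 was also lost without Sham 3 or any single MI_ART library, by limma-voom and with a replicate block. Inmt was called with and without Sham 1, but not without MI_ART 1 (adjusted p = 0.0603).

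Transcripts outside the protein-coding genes can be set against the background of 12.9% higher and 7.41% lower. Of 1276 tested long noncoding RNAs, 93 were higher and 62 lower, and of 1217 pseudogenes 34 and 54. Among those named after their values were seen, Meg3 of the imprinted Dlk1-Dio3 cluster rose from 16.2 ± 3.58 to 58.8 ± 9.10 CPM, and its neighbour Rian from 14.8 ± 2.15 to 50.1 ± 9.18 CPM (SD, n = 3). Mhrt, the RNA transcribed antisense from the cardiac myosin locus, fell from 58.6 ± 14.5 to 34.0 ± 8.69 CPM (adjusted p = 0.0494), and reads of the 2 strands cannot be told apart without a stated strand setting. Of 28 cytosolic ribosomal protein genes, 22 had every MI_ART library above every Sham library, against 25.4% of all tested genes, yet 1 of them, Rpl3, passed the test (median 0.36). The count was 15 without MI 4, 17 with a replicate block, in which MI 4 has its own term, and 26 with total-count scaling.

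**Figure D4:**
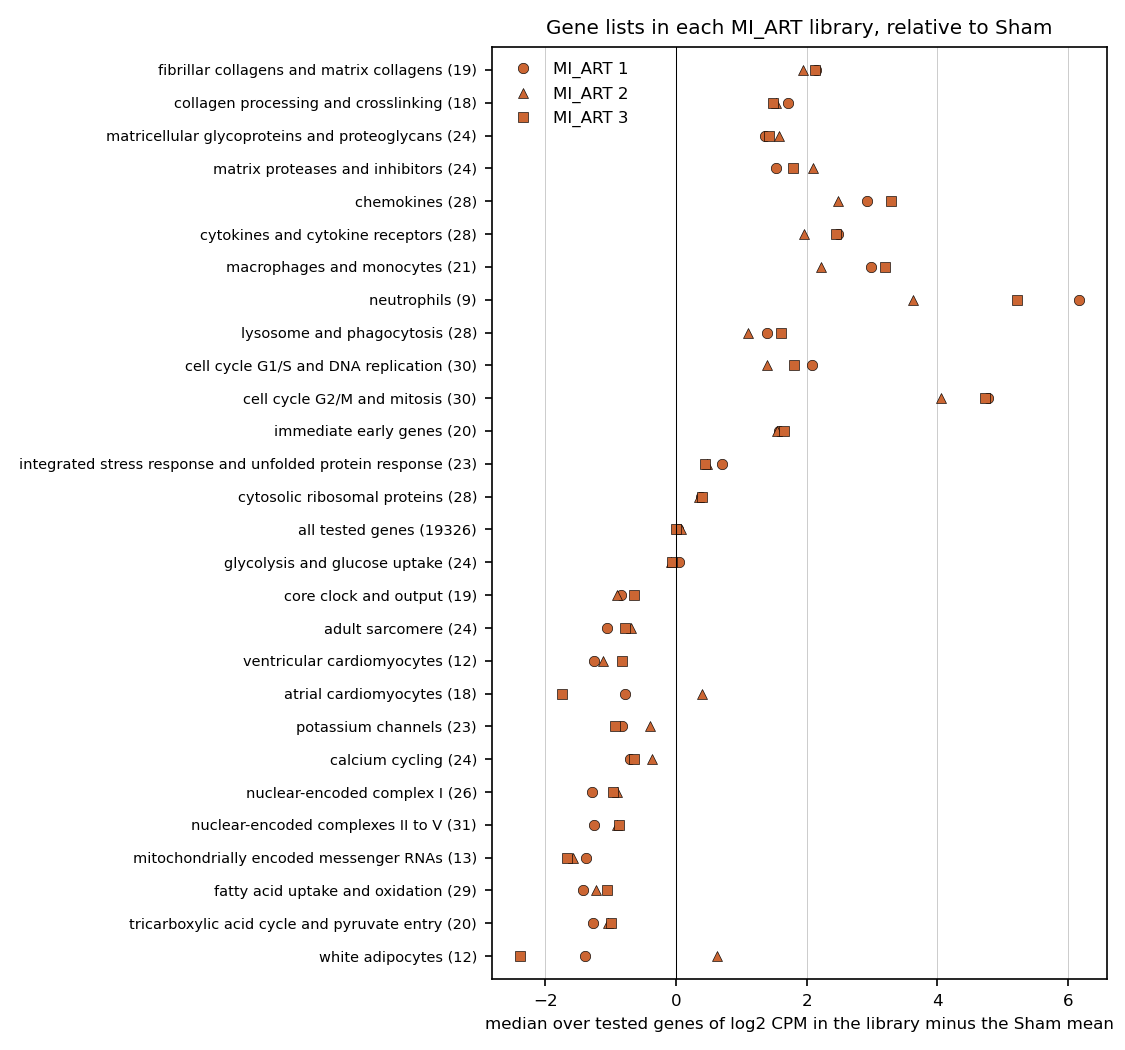
Median over the tested genes of each list (number in brackets) of log2 CPM in a MI_ART library minus the Sham mean (x axis), for 27 lists and all genes. The 3 libraries lie close together for collagens, ribosomal proteins and respiratory genes, MI_ART 2 is nearest to Sham for neutrophils, macrophages and cell cycle genes, and the 3 libraries spread widely for atrial cardiomyocytes (-1.74 to 0.40) and white adipocytes (-2.39 to 0.64).

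Across all called genes the treated libraries were not equally far from Sham. Of the 2488 genes called higher, MI_ART 1 was the highest treated library for 1306, MI_ART 3 for 898 and MI_ART 2 for 284. Of the 1433 called lower, MI_ART 1 was the lowest for 970, MI_ART 3 for 280 and MI_ART 2 for 183. The median log2 distance from the Sham mean over the higher genes was 1.91, 1.52 and 1.78 in MI_ART 1, 2 and 3, and over the lower genes -1.08, -0.85 and -0.89. The median range between libraries over tested genes was 0.44 log2 in MI_ART and 0.50 in Sham. In 7 genes a MI_ART library held at least 1000 counts and another at most 5, as did 14 genes in Sham. The clearest case was septin 2, listed in 2 rows, whose MI_ART counts were 1091, 14976 and 14079 in the first and 14800, 0 and 1608 in the second. The 2 rows traded places between libraries.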

How the data were processed

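Per the labels, libraries were made from 1.3 µg total RNA with a SMARTer mRNA kit. Extraction is given as both RNeasy and TRIzol, the animals once as rats, and the groups once as 4 with 3 listed. The submitters' processing notes name HISAT, featureCounts 1.5.0-p3, DESeq 1.8.3 and GRCm38, with strand setting and treatment of multiply mapped reads not given in the sources used here. The authors deposited whole-number read counts per gene, used as deposited. In R 4.3.3, genes passing edgeR 4.0.16's filterByExpr in the 9 libraries were TMM-scaled and fitted by quasi-likelihood with 1 mean per group. Standard errors are the log2 fold change over the root of F. The script was tested on simulated data. Alternatives used DESeq2 1.42.0, limma 3.58.1 (voom), other scalings and filters. Symbols were matched to RefSeq (the same build) for 92.3% of tested genes. Genes named are a fixed panel, the 10 largest calls per direction at 1 CPM or more without overlap, up to 4 members per list by p, called members against a list's direction, and calls against MI. A gene that this rule names is not reported here. Members, panel and the 61 lists were chosen with earlier results of these data known.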

Additional observations from a re-analysis of the deposited data

How the results depend on the processing

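With scaling to total counts 8032 genes were higher and 124 lower, against 2488 and 1433. Lower calls numbered 952 with no filter on low counts and 2538 with the 6 MI_ART and Sham libraries alone. Leaving out each library gave 1596 to 3434 higher and 455 to 2896 lower calls. Both counts were otherwise within 1.5 times of the reported ones with the other scalings, filters and tests run, apart from the replicate block. The difference in mitochondrial share was -17.3 to -14.5 percentage points leaving out each Sham or MI_ART library and -15.8 without mitochondrial ribosomal and transfer RNAs, and scaling has no bearing on it. Same-numbered Sham and MI_ART libraries correlated at -0.002 to 0.06 in their deviations from the group means. Differently numbered ones correlated at -0.096 to 0.052. So few pairs cannot settle whether the numbers mark a shared batch. A fit with the replicate block gave 3250 higher and 2676 lower. Number 4 occurs in MI 4 alone, so the block gives that library its own term and takes it out of the spread. Leaving out MI 4 gave 3434 higher and 2896 lower. The causes were not tested, beyond fewer samples where libraries were left out. With total counts these log2 estimates turned sign, most of them in step with the 0.74 shift of all genes: Alox5 0.16, Bmp6 0.082, Bnip3 0.044, Cacna1c 0.30, Cp 0.078, Dnajb9 0.10, Fabp4 0.041, Gja1 0.47, Gja5 0.29, Gpx4 0.28, Hspb8 0.092, Irx3 0.61, Kcna5 0.45, Ly6c1 0.11, Mef2a 0.22, Myl4 0.16, Myl7 0.069, Rgs4 0.14, Ryr2 0.0055, Scn7a 0.057, Slc30a9 0.037, Smoc2 0.46, Tfrc 0.69 and the clock list's median 0.050. The medians of 16 other lists also turned from below to above 0. Estimates near 0 also turned elsewhere. By limma-voom Hba-a1 was -0.31, Hbb-bs -0.31 and Tfrc 0.12, and under the block -0.28, -0.31 and 0.13. Leaving out each library, Hba-a1 ranged from -0.65 (without MI_ART 1) to 0.94, Hbb-bs from -0.69 (without MI_ART 1) to 0.81, Irx3 from -0.40 to 0.070 (without MI_ART 2), Nppa from -0.85 (without MI_ART 2) to 0.86, Tbx20 from -0.044 (without Sham 2) to 0.080, and Tfrc from -0.34 to 0.58 (without Sham 1). Tfrc was 0.0040 with the 6 libraries, and Tbx20 -0.00021 with at least 1 CPM in 3 libraries. At this depth a gene without counts in a library is limited to 0.032 to 0.059 CPM, for counting error only.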
